A study of Mus musculus with 8 samples.

Results

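Cytochrome P450 enzymes of families 1 to 4 are the haem-containing monooxygenases that do most of the oxidation of drugs, pollutants, steroids and fatty acids in the liver. The members were chosen by annotation alone, as every probe set whose platform annotation gives exactly 1 gene symbol made of Cyp, a family number from 1 to 4, a subfamily letter and a gene number. The array used for the tumours held 69 such probe sets for 56 genes, out of 34958 probe sets for 18194 genes with 1 symbol. The array used for the adenovirus samples held 58 for 49 genes, out of 20393 for 12394. All 58 are also on the tumour array. The genes fell into subfamilies, of which Cyp2c had 11 members, Cyp2d 8, Cyp4f 7, Cyp2j 5, Cyp3a 5, Cyp2b 4 and Cyp4a 3.

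Expression was measured in p53-/- mice on a C57BL/6J background, in a study of telomere dysfunction. The tumour arrays each held RNA of 1 hepatocellular carcinoma from an HBs transgenic mouse aged 12 to 15 months. These were 3 tumours from mTERC- mice, which lack the telomerase RNA gene, and 3 from mTERC+ mice, which have it, so that both groups carried the p53 deletion and the HBs transgene. The adenovirus arrays held liver RNA taken 48 h after intravenous infection of p53-/- mice with an adenovirus carrying TRF2DBDM, which is TRF2, a protein that binds telomeres, in a truncated version, or carrying GFP. Each was 1 array with RNA pooled from 3 mice, and the p53 deletion and an adenovirus were common to both pools. The promoters of the transgene and of the viruses, the generation of the mTERC- mice and the sex of all mice are left unstated by the labels.

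P450 enzymes sit in the membrane of the endoplasmic reticulum and receive electrons from the reductase Por. Much of their expression is in hepatocytes, where it differs between zones of the lobule: Cyp2e1 and Cyp1a2 are enriched around the central vein and Cyp2f2 around the portal vein. The nuclear receptors CAR, PXR and PPARalpha and the aryl hydrocarbon receptor induce different subfamilies, and growth hormone gives several mouse P450 genes a strong bias to 1 sex.

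On the tumour arrays the median signal was 54.5 to 59.4 in 5 tumours and 75.1 in mTERC- tumour 2. On that array the Gapdh control probe sets gave a ratio of 13.8 between the 3' and 5' ends, against 0.983 to 1.18 in the other 5, and a mean correlation with the other tumours of 0.788, against 0.835 to 0.847. The tissue label reads hepatocytes on every array, while the series design speaks of liver and tumour RNA. Hepatocyte markers were abundant in all tumours, with a summed signal of 131762.7 to 197059.1 over 11 markers in mTERC- and 172662.9 to 204627.8 in mTERC+ tumours. Markers of other cells were present too. The summed signal of 10 macrophage markers was 12566.9 to 17251.6 in mTERC- and 10025.6 to 47725.7 in mTERC+ tumours, and that of 8 neutrophil markers was 9168.6 to 21249.7 in mTERC- and 401.1 to 3014.8 in mTERC+ tumours. That of 8 endothelial markers was 834.1 to 1592 in mTERC- and 1581.6 to 2234.2 in mTERC+ tumours. The neutrophil sums rest largely on S100a8 and S100a9, which had 2758.7 and 5523.2 of the 9168.6 in mTERC- tumour 3. Ngp, Camp, Mpo, Elane and Cxcr2 overlapped between the groups. The part of macrophages, neutrophils and endothelial cells in the P450 values was not tested. A hepatocyte marker is lower in bulk RNA both where there are fewer hepatocytes and where each holds less of it, and these cannot be told apart here.

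Most members have other members as neighbours in the genome. With members joined where the next lies within 500 kb in the RefSeq table (GRCm38.p6), 48 of the 56 members fell into 9 groups and 8 stood alone. The largest group held 10 of the 11 Cyp2c genes, with Cyp2c23 alone and apart from them, and the next held all 8 Cyp2d genes. Closely related P450 genes can share probe hybridization, which was not tested.

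Of the 56 members, 43 had at least 1 promoter in the RefSeq table of GRCm38.p6, 49 promoters in all, each reaching from 250 bases before to 50 after the gene start. Promoters were read because the 7 Cyp2c genes that reached the array median in the GFP pool were all higher in the TRF2DBDM pool. The letters CAAAGTNCA, the form of site that the hepatocyte receptor HNF4 binds, were searched on both strands with N as any base. They stood in a promoter of 9 of the 43 member genes (20.9%) and of 444 of all 27025 genes (1.64%). All 9 matches ran on the strand of the gene, 58 to 116 bases before its start. They belonged to Cyp2c37, Cyp2c50, Cyp2c65, Cyp2c68, Cyp2c70, Cyp2d26, Cyp3a11, Cyp3a16 and Cyp3a44. The letters TATAAA, searched likewise and unable to share a position with CAAAGTNCA, stood in a promoter of 18 member genes (41.9%) and of 15.7% of all genes. Further letters searched showed less or no excess. GCGTG, the xenobiotic response core, stood in a promoter of 25.6% of member genes and of 35.2% of all genes. TTGCNNAA, a C/EBP-type motif, stood in 18.6% of member genes and 12.2% of all genes. A match is a description of the letters and not of binding.

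The 6 promoters below belong to Cyp2c, Cyp2d and Cyp3a genes among the 9 with a match, and capitals mark CAAAGTNCA. They were not picked by the size of their differences or ratios. Each run is 120 bases that end just before the gene start, 5' to 3' on the strand of the gene. The window of Cyp2c37 is chr19:39992304-39992423 on the plus strand and that of Cyp2c50 is chr19:40089559-40089678 on the plus strand. On the minus strand lie those of Cyp2c68 at chr19:39741102-39741221, Cyp2c70 at chr19:40187287-40187406, Cyp2d26 at chr15:82794246-82794365 and Cyp3a11 at chr5:145879855-145879974.
Cyp2c37: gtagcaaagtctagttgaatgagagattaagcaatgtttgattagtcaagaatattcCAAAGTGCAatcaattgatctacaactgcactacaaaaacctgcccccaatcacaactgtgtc
Cyp2c50: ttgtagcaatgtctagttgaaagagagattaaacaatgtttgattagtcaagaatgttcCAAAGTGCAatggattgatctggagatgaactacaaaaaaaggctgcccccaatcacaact
Cyp2c68: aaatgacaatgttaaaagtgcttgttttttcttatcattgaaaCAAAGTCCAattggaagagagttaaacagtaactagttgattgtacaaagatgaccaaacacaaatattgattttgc
Cyp2c70: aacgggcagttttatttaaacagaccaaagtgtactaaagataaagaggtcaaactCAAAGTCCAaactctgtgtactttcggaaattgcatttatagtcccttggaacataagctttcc
Cyp2d26: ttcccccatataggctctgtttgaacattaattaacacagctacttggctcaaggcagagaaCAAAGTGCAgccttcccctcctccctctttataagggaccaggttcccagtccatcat
Cyp3a11: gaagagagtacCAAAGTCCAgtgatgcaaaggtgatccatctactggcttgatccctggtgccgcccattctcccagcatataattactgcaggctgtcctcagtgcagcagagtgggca

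The windows of Cyp2c37 and Cyp2c50 were 82.4% identical over 125 aligned columns. A pair with no match to that motif is shown because both genes are biased to females in mouse liver and were both higher in the TRF2DBDM pool. Cyp2b13 at chr7:26061375-26061494 and Cyp2b9 at chr7:26173289-26173408, both on the plus strand, were identical in all 120 bases, while Cyp2b10 and Cyp2b9 were 73.8% identical.
Cyp2b13: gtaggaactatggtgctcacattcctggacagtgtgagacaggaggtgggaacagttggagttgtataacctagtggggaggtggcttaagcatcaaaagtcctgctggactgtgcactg
Cyp2b9: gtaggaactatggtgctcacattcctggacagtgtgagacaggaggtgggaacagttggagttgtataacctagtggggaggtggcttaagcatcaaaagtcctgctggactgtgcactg

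The tumour comparison set carcinomas of mice that lack the telomerase RNA gene against those of mice that have it. Values are MAS5 signals, and log2 differences are of log2(signal + 32), mTERC- minus mTERC+. Each gene was read from its probe set with the highest mean level, and the 40 of 56 members whose mean level reached that of the median probe set were tested. Of these, 0 passed at an adjusted p below 0.05 in limma, where 0.00835% of all 11980 genes tested did. At an unadjusted p below 0.05 in limma there were 4 of the 40 members, and 5.04% of all genes. A higher mean log2 level in mTERC- tumours was seen for 19 members and a lower one for 21, where 51.4% of all genes had a higher one. Means called higher or lower in tumours below are of log2(signal + 32), and the mean of the signals can differ in direction. The median log2 difference was -0.06 for the members and 0.02 for all genes. A difference of at least 1 in size was seen for 5 of the 40 members, and for 6.21% of all genes.

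The groups did not overlap for 5 of the 40 members, a share close to the 10.1% of all genes. Cyp2r1 and Cyp2b10 were higher in all 3 mTERC- tumours, where 5.75% of all genes were. Cyp2c23, Cyp4b1 and Cyp2c55 were lower in all 3, where 4.39% of all genes were. The histogram of differences shows the members' values beside those of all genes.

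**Figure D1:**
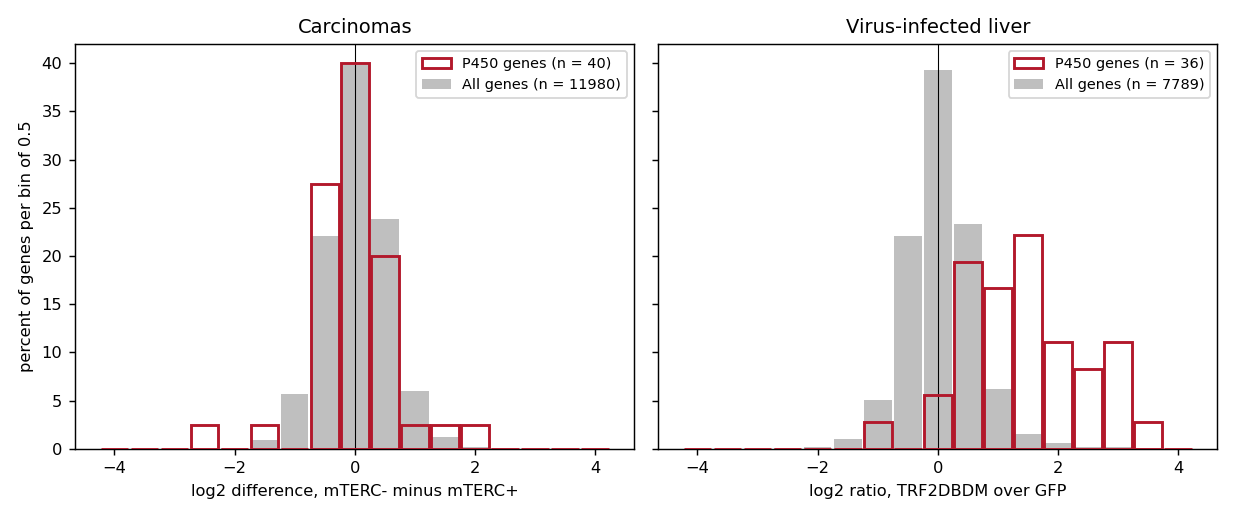
Percent of genes (vertical axis) per bin of 0.5 of the log2 difference, mTERC- minus mTERC+ (left), and of the log2 ratio, TRF2DBDM over GFP (right), for P450 genes (red outlines, 40 left and 36 right) and all genes compared (grey). In the tumours the members are centred on 0, with a median of -0.06, and in the virus livers they lie to the right, with a median of 1.34 against 0.02 for all genes.

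Cyp2c23 (Entrez Gene 226143), which epoxidizes arachidonic acid, had the smallest p of the members. Its signal was 418.8, 405.0 and 547.2 in mTERC- tumours 1, 2 and 3, against 1548.1, 1355.4 and 5594.1 in mTERC+ tumours 1, 2 and 3. The mTERC- tumours lay close together, all below the mTERC+ ones, among which tumour 3 was far above the other 2. The log2 difference was -2.25 (SE 0.46), with an unadjusted p of 0.000216 and an adjusted p of 0.646 in limma. It was -1.61 without mTERC+ tumour 3 and -2.18 without mTERC- tumour 2.

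Cyp2e1 (Entrez Gene 13106), which oxidizes ethanol and acetaminophen, had a signal of 1714.2, 1867 and 487 in mTERC- tumours, against 88.7, 514.1 and 342.5 in mTERC+ tumours. Tumours 1 and 2 of the mTERC- group were high, and mTERC- tumour 3 lay within the range of the mTERC+ group. The log2 difference was 2.04 (SE 0.57; adjusted p = 0.906 in limma). It was 1.41 without mTERC+ tumour 1, the lowest of the 6.

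Cyp2f2 (Entrez Gene 13107), known for oxidizing naphthalene, had 1915.8, 2741.6 and 6686.8 in mTERC- tumours, against 12837.7, 6095.5 and 7165 in mTERC+ tumours. The groups overlapped through mTERC- tumour 3. The log2 difference was -1.32 (SE 0.44, adjusted p = 0.906 in limma). Cyp2e1 and Cyp2f2, which mark opposite zones of the normal lobule, thus had opposite mean differences, and neither passed the test. Cyp1a2, another gene of the central zone, had 1328.6, 342.4 and 632.5 in mTERC- tumours, against 207.4, 645.2 and 492.1 in mTERC+ tumours, with the groups overlapping. Its log2 difference was 0.66 (SE 0.49, adjusted p = 0.953 in limma). Leaving out mTERC- tumour 1 gave 0.18, leaving out mTERC+ tumour 1 gave 0.23, and leaving out mTERC- tumour 2 gave 1.11. Of the 4 members of the list of genes of the central zone, 3 had a higher mean log2 level in mTERC- tumours, with a median log2 difference of 0.36.

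Cyp2r1 (Entrez Gene 244209), a vitamin D 25-hydroxylase, had 197.5, 225.7 and 177.2 in mTERC- tumours, against 63.4, 67.6 and 43.7 in mTERC+ tumours. Both groups were tight and well apart. The log2 difference was 1.37 (SE 0.41, adjusted p = 0.906 in limma), and it lay between 1.25 and 1.44 when each tumour was left out in turn. Cyp2r1 is not a member on the adenovirus array.

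**Figure D2:**
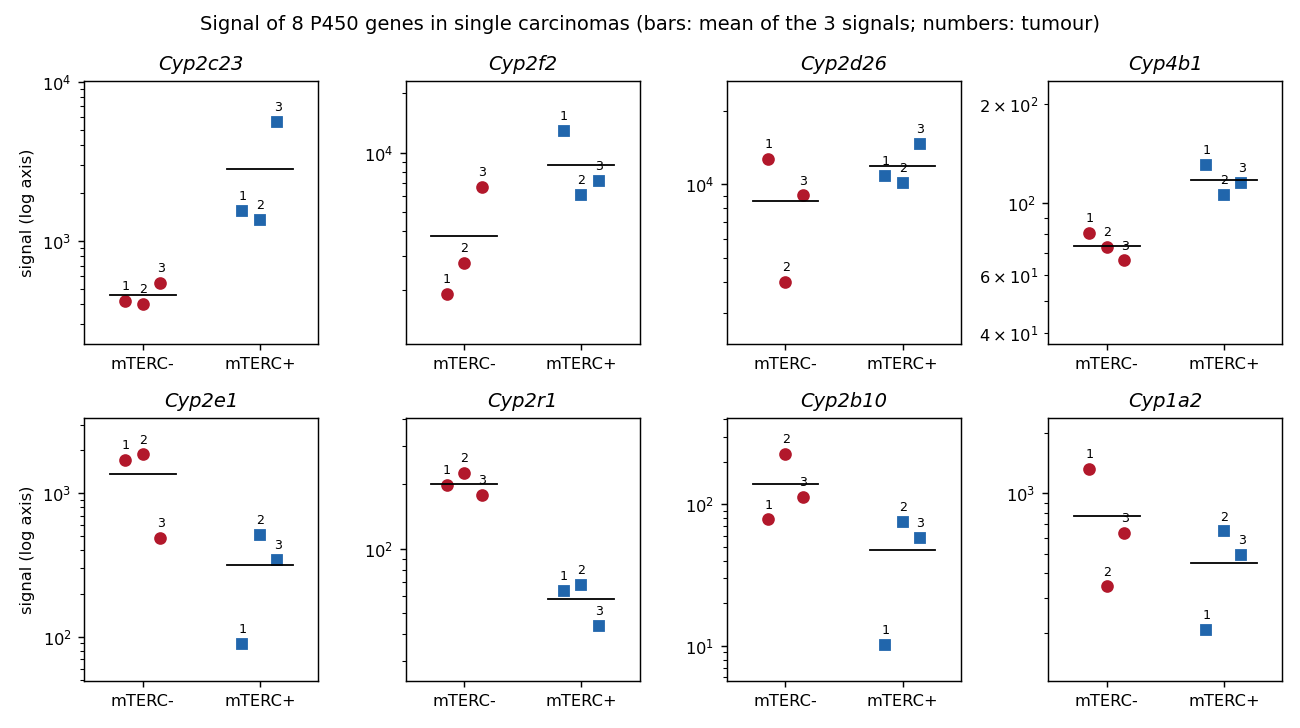
Signal (log axis) of 8 P450 genes in the 3 mTERC- tumours (red circles) and the 3 mTERC+ tumours (blue squares), with the number of the tumour above each point and a bar at the mean of the 3 signals. Cyp2c23 and Cyp4b1 are lower and Cyp2r1 and Cyp2b10 higher in all 3 mTERC- tumours, while Cyp2f2, Cyp2d26, Cyp2e1 and Cyp1a2 overlap between the groups.

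In the Cyp2b subfamily, the CAR target Cyp2b10 (Entrez Gene 13088) had 78.2, 226.9 and 113.5 in mTERC- tumours, against 10.2, 75.2 and 58.1 in mTERC+ tumours. The lowest mTERC- tumour lay just above the highest mTERC+ tumour. The log2 difference was 1.12 (SE 0.54, adjusted p = 0.953 in limma). The other 2 probe sets of Cyp2b10 gave differences of 1.73, with the groups apart, and 1.14, with the groups overlapping. The difference was 0.77 without mTERC- tumour 2, where its signal was highest, and 0.71 without mTERC+ tumour 1, where it was lowest. Cyp2b13 and Cyp2b19, an enzyme of the skin, lay below the level filter. Of the 6 genes listed as targets of CAR or PXR 3 had a higher and 3 a lower mean in mTERC- tumours, with a median log2 difference of -0.03.

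The Cyp2c subfamily is rich in enzymes that epoxidize arachidonic acid. The mean log2 level was higher in mTERC- tumours for 4 and lower for 5 of the 9 that were tested, with a median log2 difference of -0.04. Cyp2c55 had 95.7, 84.3 and 72.9 in mTERC- tumours, against 173.1, 106.3 and 102.6 in mTERC+ tumours, so the groups did not overlap, with a log2 difference of -0.43 (adjusted p = 0.967 in limma). Cyp2c54 had 115.4, 431.3 and 290.2 in mTERC- tumours, against 667.1, 241.8 and 468.2 in mTERC+ tumours. These overlapped, and the log2 difference was -0.71 (SE 0.47, adjusted p = 0.953 in limma). Leaving out tumour 1 of the mTERC- or the mTERC+ group gave -0.24 and -0.40, and leaving out tumour 2 of either gave -1.07 and -1.08. Cyp2c70, which makes the muricholic acids of mouse bile, had 8879.7, 11832.6 and 4876 in mTERC- tumours, against 7640.9, 7629 and 8645.6 in mTERC+ tumours. Its mTERC- tumours lay on both sides of the mTERC+ group, and the difference was 0.01 (SE 0.35, adjusted p = 0.998 in limma), with the sign turning under several alternatives. Cyp2c68 was steady, at 2984.5, 2507.4 and 4559.5 in mTERC- tumours, against 3730.4, 2807.7 and 3577 in mTERC+ tumours.

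The tested Cyp2d genes all had a lower mean in mTERC- tumours, 6 of 6, with log2 differences of -0.60 to -0.07 and a median of -0.25. For every one of them the groups overlapped, and none of the 6 passed in limma. Cyp2d26 (Entrez Gene 76279) had the largest difference of these, with 12661.2, 4010.6 and 9020.6 in mTERC- tumours, against 10835.7, 10150.6 and 14665.3 in mTERC+ tumours. Its low value was in mTERC- tumour 2, whose Gapdh probe sets stood apart, and the difference of -0.60 (SE 0.40, adjusted p = 0.953 in limma) was -0.13 without that array and -0.96 without mTERC- tumour 1. Cyp2d10 had 7369.4, 4505.2 and 5389 in mTERC- tumours, against 4608.3, 5113.7 and 11835.8 in mTERC+ tumours. Here mTERC+ tumour 3 stood above the other 5, and without it the difference was 0.21 in place of -0.21 (SE 0.38, adjusted p = 0.983 in limma). Cyp2d22, the mouse relative of the human drug enzyme CYP2D6, had -0.38 in its chosen probe set and -0.55 in the other.

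In the Cyp3a subfamily, Cyp3a11 (Entrez Gene 13112), a PXR target and a main drug-metabolizing P450 of mouse liver, had 4834.1, 8181.8 and 10591.1 in mTERC- tumours, against 9047.5, 13161.8 and 6669.6 in mTERC+ tumours. The groups overlapped, and the log2 difference was -0.31 (SE 0.37, adjusted p = 0.967 in limma). It was near 0, at 0.01, without mTERC- tumour 1. Cyp3a25 had 366.5, 852.4 and 1966.6 in mTERC- tumours, against 399.8, 1154.2 and 452.7 in mTERC+ tumours, a spread within each group that exceeded the difference of 0.50. Cyp3a13 was the steadiest of the 3, with a range of 0.56 on the log2 scale over all 6 tumours.

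Among the fatty acid hydroxylases of family 4, Cyp4b1 (Entrez Gene 13120) had 81, 73.4 and 66.6 in mTERC- tumours, against 130.3, 105.2 and 114.7 in mTERC+ tumours. The groups were tight and apart, but the log2 difference was only -0.49 (SE 0.43, adjusted p = 0.966 in limma). Of 6 tested Cyp4f genes 5 had a higher mean log2 level in mTERC- tumours, with a median of 0.23, and for all 6 the groups overlapped. Cyp4f15, which with Cyp4f14 hydroxylates leukotriene B4, had 153.1, 912.6 and 307.7 in mTERC- tumours, against 595, 602.1 and 426.5 in mTERC+ tumours. Its log2 difference was -0.54 (SE 0.49, adjusted p = 0.967 in limma). Leaving out mTERC- tumour 1 gave -0.00138, leaving out mTERC- tumour 2 gave -1.18, and the Y-linked covariate gave -0.022. Cyp4f18, the leukotriene hydroxylase of mouse neutrophils, had 165, 24.6 and 109.6 in mTERC- tumours, against 47.1, 251.8 and 12.5 in mTERC+ tumours. This probe set was thus highest in mTERC+ tumour 2. The other probe set of Cyp4f18 had 124.3, 97.1 and 15.3 in mTERC- tumours, against 83.9, 11.2 and 41.6 in mTERC+ tumours. That one was highest in mTERC- tumour 1. The summed neutrophil markers were higher in all 3 mTERC- tumours. Of the single markers S100a8, S100a9 and Csf3r were too, while Ngp, Camp, Mpo, Elane and Cxcr2 overlapped between the groups. The part of neutrophils in the Cyp4f18 values was not tested.

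Some genes gave different answers from different probe sets. In Cyp2j5, an epoxygenase of kidney and liver, the chosen probe set had a log2 difference of -0.14 with overlap. The other had 6.8, 63 and 67.9 in mTERC- tumours, against 207.2, 113.7 and 233.5 in mTERC+ tumours, with no overlap and a difference of -1.55. The probe sets of Cyp1b1, an enzyme mostly outside the liver, lay below the filter and differed in direction, at 0.11, -0.86 and 0.52. Those of Cyp2u1, a fatty acid hydroxylase, were at -0.31 and 0.28.

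The 16 members below the level filter were Cyp1a1, Cyp1b1, Cyp2b13, Cyp2b19, Cyp2c39, Cyp2c65, Cyp2d13, Cyp2d34, Cyp2j11, Cyp2j13, Cyp2s1, Cyp3a16, Cyp3a44, Cyp4a14, Cyp4x1 and the pseudogene Cyp4f41-ps. Of these 16, the groups did not overlap for Cyp2d34 and Cyp3a44, both higher in mTERC- tumours, where 10.8% of all 6214 genes below the filter had groups apart. Cyp2d34 had 65.3, 39 and 56.6 in mTERC- tumours, against 34, 7.4 and 9.8 in mTERC+ tumours. Cyp3a44 had 65.5, 83.7 and 73.8 in mTERC- tumours, against 7.3, 21.5 and 65.4 in mTERC+ tumours, so that its lowest mTERC- and highest mTERC+ values nearly met. With no level filter, 0 of the 56 members passed in limma.

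Single tumours of a group differed widely in P450 signal. The median SD within groups was 0.71 on the log2 scale for the members and 0.53 for all genes. A range of at least 4-fold over the 6 tumours was seen for 18 of 40 members (45.0%) and for 23.2% of all genes. Without mTERC- tumour 2 it was seen for 14 members (35.0%) and 12.8% of all genes. Wide ranges were more frequent among genes of low level. Of the 40 members 19 were among the 25% of genes with the highest levels. Of those 19, 7 had such a range, where 13.0% of all genes at those levels did. The widest ranges were 4.37 for Cyp4f14, 3.98 for Cyp2e1, 3.74 for Cyp4a12a, 3.69 for Cyp2c23 and 3.47 for Cyp2b9. The narrowest was 0.49 for Cyp2j6, an epoxygenase with 255, 200.9 and 212.3 in mTERC- tumours, against 173.1, 197.9 and 213.1 in mTERC+ tumours.

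Cyp4f14 (Entrez Gene 64385) had 216, 778.5 and 1295.2 in mTERC- tumours, against 2159.6, 617.2 and 74.3 in mTERC+ tumours. Its highest and its lowest value were both in the mTERC+ group. The same was true of Cyp2c29, with 252.5, 421.6 and 526.3 in mTERC- tumours, against 850.1, 445.6 and 119.7 in mTERC+ tumours. No tumour was at an extreme for all members: mTERC+ tumour 1 was highest for 11 and mTERC- tumour 2 for 10, and mTERC- tumour 1 was lowest for 13.

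**Figure D3:**
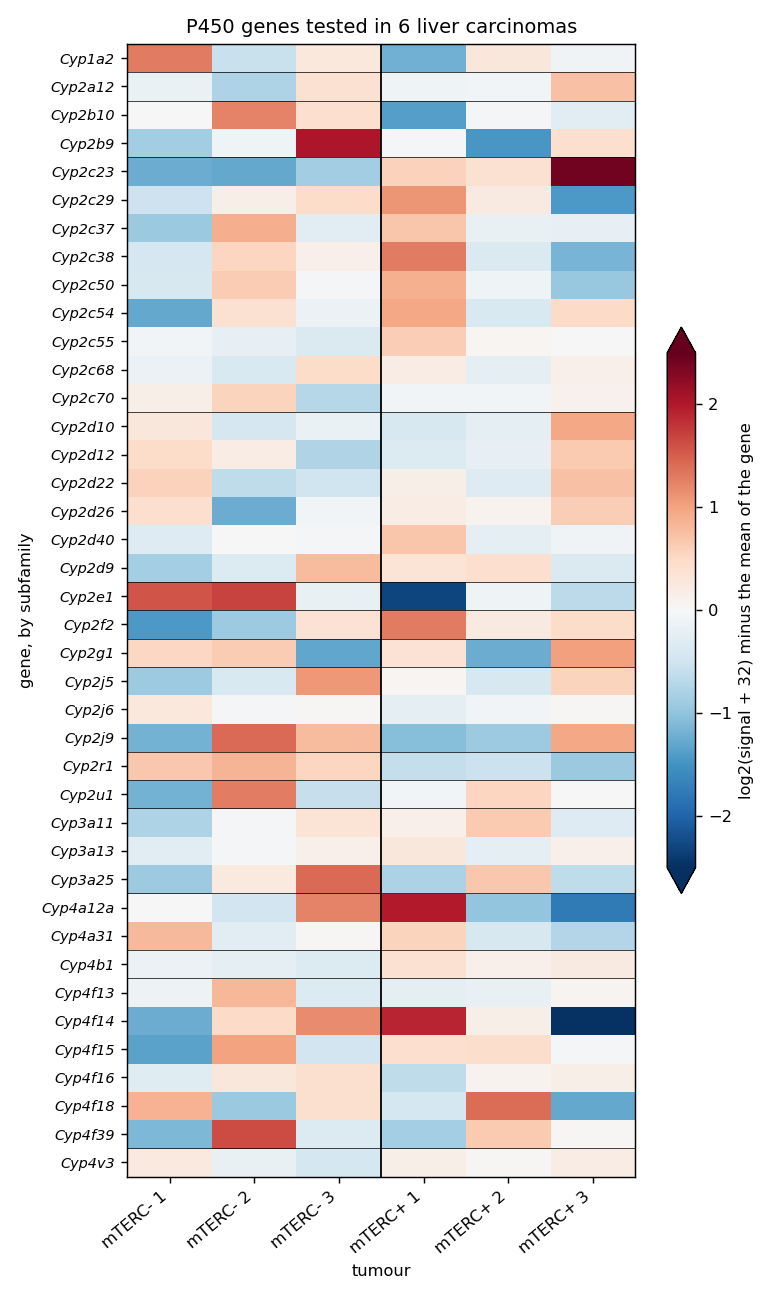
Heat map of the 40 tested P450 genes (rows, by subfamily) in the 3 mTERC- and 3 mTERC+ tumours (columns), where colour is log2(signal + 32) minus the mean of the gene over the 6 tumours. Many rows hold both colours within a group. Cyp2c23 is blue in all 3 mTERC- tumours and Cyp2r1 is red in all 3.

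Across the 6 tumours, members of a subfamily were not all alike. The median correlation between Cyp2c members was 0.26 over 36 pairs, with single pairs from -0.85 to 0.97. That between members of different subfamilies was -0.02 over 706 pairs. Pairs of different subfamilies spanned -0.97 to 0.99. The 2 highest of all pairs were Cyp2c29 with Cyp4f14, at 0.99, and Cyp2c38 with Cyp2c50, at 0.97. Neighbours Cyp2c29, Cyp2c37, Cyp2c38, Cyp2c50 and Cyp2c54 had a median of 0.75 over 10 pairs, a set picked after their values were seen. Among Cyp2d genes the median was -0.05 over 15 pairs. These are descriptions over 6 tumours that include the group difference, and mTERC- tumour 2 enters every pair.

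The second comparison asked what differed in p53-/- liver 48 h after TRF2DBDM was delivered, against GFP. With 1 pool per virus there is no replicate, so the values describe these 2 arrays and carry no test. A gene was compared where its signal was no lower than the median of at least 1 array, and ratios are of (signal + 32), TRF2DBDM over GFP. Of the 49 members 36 were compared, and 34 of these were higher in the TRF2DBDM pool, where 52% of all 7789 genes were. At least 2-fold higher were 22 members (61.1%), where 4.62% of all genes were, and at least 4-fold higher were 9, where 0.745% of all genes were. At least 2-fold lower were 0 members, where 2.9% of all genes were. The median log2 ratio was 1.34 for the members and 0.02 for all genes.

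The filter lets a gene in through its higher array, and 7 members, Cyp1a1, Cyp2c39, Cyp2c54, Cyp2c55, Cyp2d13, Cyp2s1 and Cyp3a44, entered through the TRF2DBDM array alone, which favours a higher value there. Among genes that reached the median on the GFP array, 27 of 29 members were higher and 19 (65.5%) at least 2-fold higher, where 3.25% of all such genes were. With no filter, 44 of 49 members were higher and 22 (44.9%) at least 2-fold higher, where 3.18% of all genes were. The 13 members below the median on both arrays, among them Cyp1b1, Cyp2c65, Cyp2d12, Cyp2j6 and Cyp4f18, held 0 with a 2-fold ratio.

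Hepatocyte markers were also higher in the TRF2DBDM pool, all 10 of 10, with a summed signal of 58169.1 in the TRF2DBDM pool against 37658.3 in the GFP pool. Their median log2 ratio was 0.52, and 3 of them were at least 2-fold higher. Alb, the gene of albumin, had 11360.6 in the TRF2DBDM pool against 8671.7 in the GFP pool. The part of this in the P450 ratios was not tested. The summed signal of 10 macrophage markers was 2635.1 in the TRF2DBDM pool against 2877.9 in the GFP pool, with 4 of 7 compared at least 2-fold higher, 2 at least 2-fold lower, and the resident macrophage markers Clec4f, Marco and Vsig4 below the median on both arrays. That of 8 neutrophil markers was 1809.8 in the TRF2DBDM pool against 2810.3 in the GFP pool. Cholangiocyte and progenitor markers summed to 322 in the TRF2DBDM pool against 675.2 in the GFP pool, with 3 of 3 compared lower and a median log2 ratio of -0.67. That median is the value of Cldn7, with 28.6 in the TRF2DBDM pool against 64.2 in the GFP pool. Cldn7 entered through the GFP array alone, which favours a lower ratio.

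**Figure D4:**
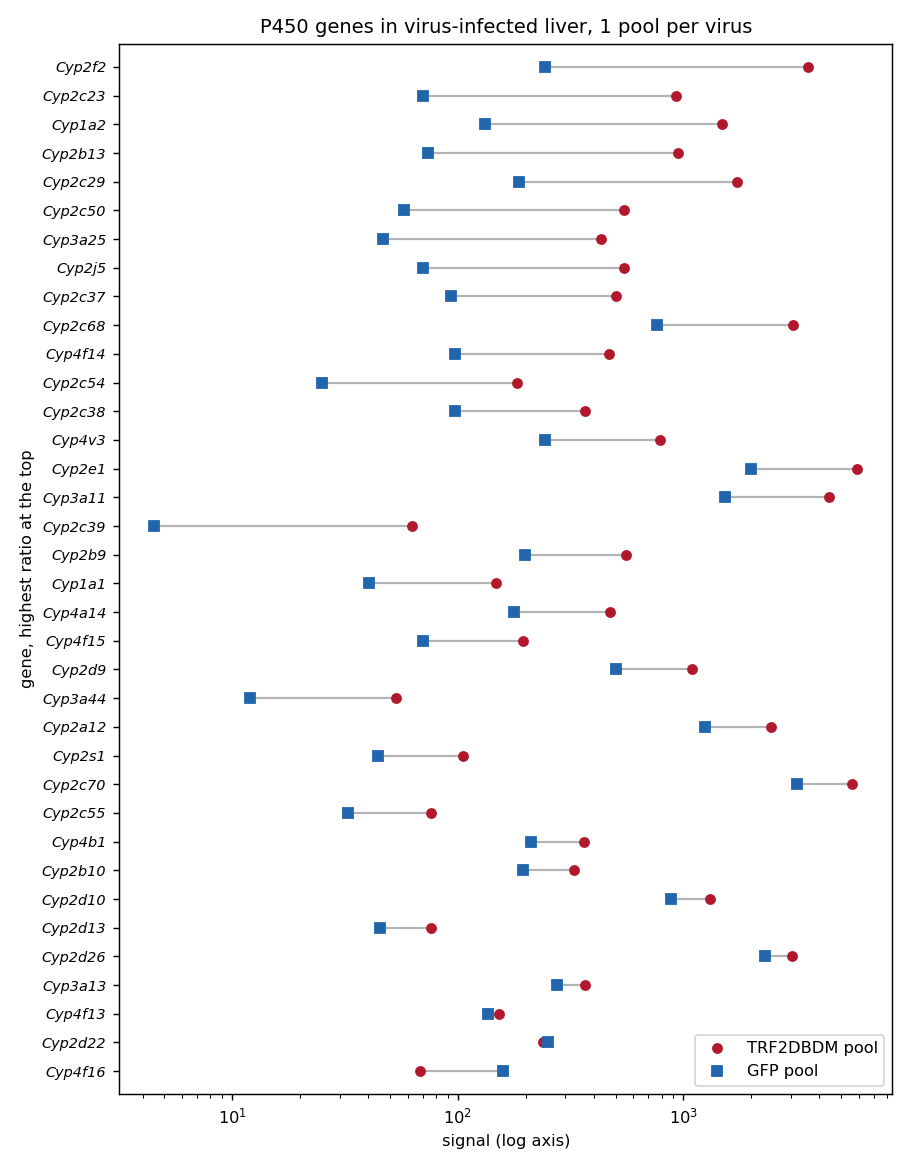
Signal (log axis) of the 36 compared P450 genes in the TRF2DBDM pool (red circles) and the GFP pool (blue squares), 1 array each, with the gene of the highest ratio at the top. All but Cyp2d22 and Cyp4f16, at the bottom, are higher in the TRF2DBDM pool.

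Of the 3 members of family 1 the 2 Cyp1a genes were compared. Cyp1a2 had 1486.2 in the TRF2DBDM pool against 132.4 in the GFP pool, a log2 ratio of 3.21. Cyp1a1, like it a target of the aryl hydrocarbon receptor, had 148.2 in the TRF2DBDM pool against 40.3 in the GFP pool, a log2 ratio of 1.32, and entered through the TRF2DBDM array alone. Cyp1b1 lay below the median on both arrays. The list of genes of the central zone, Cyp1a2, Cyp2c29, Cyp2e1 and Cyp3a11, had 4 of 4 at least 2-fold higher. Cyp2e1 had 5901 in the TRF2DBDM pool against 2003.5 in the GFP pool, a log2 ratio of 1.54, and Cyp3a11 had 4401.5 against 1525, a log2 ratio of 1.51. Cyp2f2, of the portal zone, was higher as well. It had the highest ratio of all members, with 3585.4 in the TRF2DBDM pool against 243.1 in the GFP pool, or 13.2-fold.

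Of the 10 compared Cyp2c genes 7 reached the median on the GFP array, and all 7 were higher in the TRF2DBDM pool, 6 of them at least 2-fold. Cyp2c39, Cyp2c54 and Cyp2c55 entered through the TRF2DBDM array alone. Cyp2c23 had 928.2 in the TRF2DBDM pool against 69.9 in the GFP pool (3.24) and Cyp2c29, a target of CAR, had 1727.5 against 186.5 (3.01). Cyp2c50 had 543.1 in the TRF2DBDM pool against 57.5 in the GFP pool (2.68), and Cyp2c37 had 502.5 against 93.5 (2.09). Cyp2c68 had 3072.6 in the TRF2DBDM pool against 759.8 in the GFP pool (1.97) and Cyp2c54 had 182.5 against 25.1 (1.91). Values in brackets are log2 ratios. The lowest of the 10 were Cyp2c70, with 5591.5 in the TRF2DBDM pool against 3187.4 in the GFP pool (0.80), and Cyp2c55, with 76.3 against 32.5 (0.75). Cyp2c39, a retinoic acid hydroxylase, had 62.3 in the TRF2DBDM pool and 4.5 in the GFP pool, where it lay far below the array median, so its ratio of 1.37 is largely set by the added 32. That of Cyp2c54 likewise moved between 1.47 and 2.81 over the alternatives.

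The Cyp2d genes, which neighbour each other, had smaller ratios. Of 5 compared, 4 reached the median on the GFP array. Of those 4, 3 were higher in the TRF2DBDM pool and 1, Cyp2d9, at least 2-fold so. Cyp2d13 entered through the TRF2DBDM array alone. The median log2 ratio of the 5 was 0.48, which is the value of Cyp2d13. Cyp2d26 had 3041.1 in the TRF2DBDM pool against 2302.8 in the GFP pool, a log2 ratio of 0.40. Cyp2d10 had 1308 in the TRF2DBDM pool against 881.1 in the GFP pool, a log2 ratio of 0.55, and Cyp2d13 had 75.7 against 45.3, a log2 ratio of 0.48. The other probe set of Cyp2d13 had 42.9 in the TRF2DBDM pool against 1.9 in the GFP pool, a log2 ratio of 1.14. Cyp2d22 had 239.3 in the TRF2DBDM pool against 250.1 in the GFP pool, while its other probe set had 111.3 against 42.5. Whether the Cyp2d and Cyp2c genes differ in their response was not tested, since there is 1 array per group.

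In the Cyp3a subfamily the 3 genes that reached the median on the GFP array, Cyp3a11, Cyp3a13 and Cyp3a25, were higher in the TRF2DBDM pool. Cyp3a44 had 53.2 in the TRF2DBDM pool against 12 in the GFP pool and entered through the TRF2DBDM array alone. Cyp3a25 had 431.4 in the TRF2DBDM pool against 46.4 in the GFP pool, a log2 ratio of 2.56, and Cyp3a13 had 365.9 against 276.3, a log2 ratio of 0.37. Of the 6 listed targets of CAR or PXR all 6 were higher, where 52% of all genes were. Of the 6, 3 were at least 2-fold higher, where 4.62% of all genes were, and the median log2 ratio was 1.13. These 6 include Cyp2c55, which entered through the TRF2DBDM array alone, so the filter favoured a higher value for it. Cyp2j5 had 546.3 in the TRF2DBDM pool against 70.1 in the GFP pool, a log2 ratio of 2.5, and 0.94 in its other probe set. In family 4, Cyp4f14 had 465.6 in the TRF2DBDM pool against 96.9 in the GFP pool, a log2 ratio of 1.95. Cyp4a14, a target of PPARalpha that hydroxylates fatty acids, had 472 in the TRF2DBDM pool against 177.2 in the GFP pool, a log2 ratio of 1.27. Cyp4v3, the mouse counterpart of the human fatty acid hydroxylase CYP4V2, had 788.9 in the TRF2DBDM pool against 242.4 in the GFP pool, a log2 ratio of 1.58.

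Of the Cyp2b genes, Cyp2b10 had 327.3 in the TRF2DBDM pool against 193.5 in the GFP pool, a log2 ratio of 0.67, and its other 2 probe sets gave 1.44 and 0.90. Cyp2a12, a steroid hydroxylase, had 2434.2 in the TRF2DBDM pool against 1242.3 in the GFP pool, a log2 ratio of 0.95 that falls just short of 2-fold. Just past it was Cyp2d9, at 1.08. In the tumours Cyp2a12 had 3090.4, 2017.4 and 4485.6 in the mTERC- group, against 3191.4, 3292.4 and 5761.1 in the mTERC+ group, which overlapped.

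The lowest ratio belonged to Cyp4f16, with 68.2 in the TRF2DBDM pool against 157.7 in the GFP pool, a log2 ratio of -0.92. Its other probe set was lower too, with 49.4 in the TRF2DBDM pool against 88.5 in the GFP pool. Cyp4f13 had 152.3 in the TRF2DBDM pool against 135.5 in the GFP pool. Neighbouring Cyp4f genes thus spanned log2 ratios from -0.92 to 1.95.

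Members with and without the CAAAGTNCA letters were set side by side, with no test of the difference. Of 7 compared with a match 4 were at least 2-fold higher in the TRF2DBDM pool, and the median log2 ratio of the 7 was 1.51. Of 24 compared without it 15 were, with a median of 1.34. Of all genes 4.62% were. Cyp3a44, with a match, and at least Cyp1a1, Cyp2c39 and Cyp2c55, without it, entered through the TRF2DBDM array alone. The filter thus favoured higher values in both sets. In the tumours the medians of the log2 difference were -0.12 for 6 genes with a match and 0.13 for 26 without.

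Cyp2c23 and Cyp2f2 had a lower mean in mTERC- tumours and were higher in the TRF2DBDM pool, while Cyp2e1 and Cyp1a2 had means that were higher in mTERC- tumours and were also higher in the TRF2DBDM pool. Over the 29 members compared in both, Spearman's rho across genes was 0.01 and Pearson's r was -0.20, and over 7346 genes they were -0.07 and -0.10. The tumours and virus livers share no samples, their tables were scaled separately, and genes are not independent replicates.

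Sex-biased members were read beside Xist, which is expressed in female cells, and Y-linked genes, since the labels give no sex. Xist had 920.5, 68.4 and 16.8 in mTERC- tumours, against 9.6, 13.3 and 56.8 in mTERC+ tumours. The Y-linked gene Eif2s3y had 70.5, 141.9 and 52.8 in mTERC- tumours, against 198.8, 138.5 and 219.8 in mTERC+ tumours. In the virus livers Xist had 3607 in the TRF2DBDM pool against 2307.6 in the GFP pool, and Eif2s3y had 2.3 against 0.7. Both pools were thus high for Xist and at the floor for Eif2s3y. In these probe sets the tumours were mixed, with mTERC- tumour 1 alone high for Xist. Another probe set of Xist had 862.1, 103.8 and 38.4 in mTERC- tumours, against 4.9, 3.6 and 5.4 in mTERC+ tumours, with no overlap. A probe set of the Y-linked Uty had 1.9, 9.4 and 5.5 in mTERC- tumours, against 83.2, 65.2 and 24.2 in mTERC+ tumours. The groups overlapped in the remaining probe sets of Xist, Uty, Eif2s3y and the Y-linked Kdm5d.

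Cyp2b9, biased to females, had 38, 87 and 488.1 in mTERC- tumours, against 92.9, 14.9 and 139.4 in mTERC+ tumours. Cyp2b13, likewise, had 14.3, 14.9 and 106 in mTERC- tumours, against 9, 14.3 and 7.3 in mTERC+ tumours. Both were highest in mTERC- tumour 3, where Xist was low, and not in mTERC- tumour 1. Cyp3a44, also listed as biased to females and below the level filter, had another pattern. It had 65.5, 83.7 and 73.8 in mTERC- tumours, against 7.3, 21.5 and 65.4 in mTERC+ tumours, with no overlap. In the virus livers Cyp2b13 had 941.4 in the TRF2DBDM pool against 73.4 in the GFP pool, a log2 ratio of 3.21, and Cyp2b9 had 556 against 197.5, a log2 ratio of 1.36. Cyp4a12a, biased to males, had 86.3, 51.6 and 245.4 in mTERC- tumours, against 431.5, 26.9 and 2.6 in mTERC+ tumours, and 51.2 in the TRF2DBDM pool against 19.1 in the GFP pool. Cyp2d9, a testosterone hydroxylase biased to males, had 1532, 2179.3 and 4819.8 in mTERC- tumours, against 3507.5, 3735.6 and 2149.2 in mTERC+ tumours. It had 1095.5 in the TRF2DBDM pool against 501.3 in the GFP pool. With the mean level of the Y-linked genes as a covariate, the members' median in the tumours was 0.08 and 0 of 40 passed in limma. That covariate did not follow Xist. It was 6.37 in mTERC- tumour 1, where Xist was 920.5, and 6.22 in mTERC- tumour 3, where Xist was 16.8. The covariate thus cannot stand for sex, and whether sex has a part in these values was not tested.

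**Figure D5:**
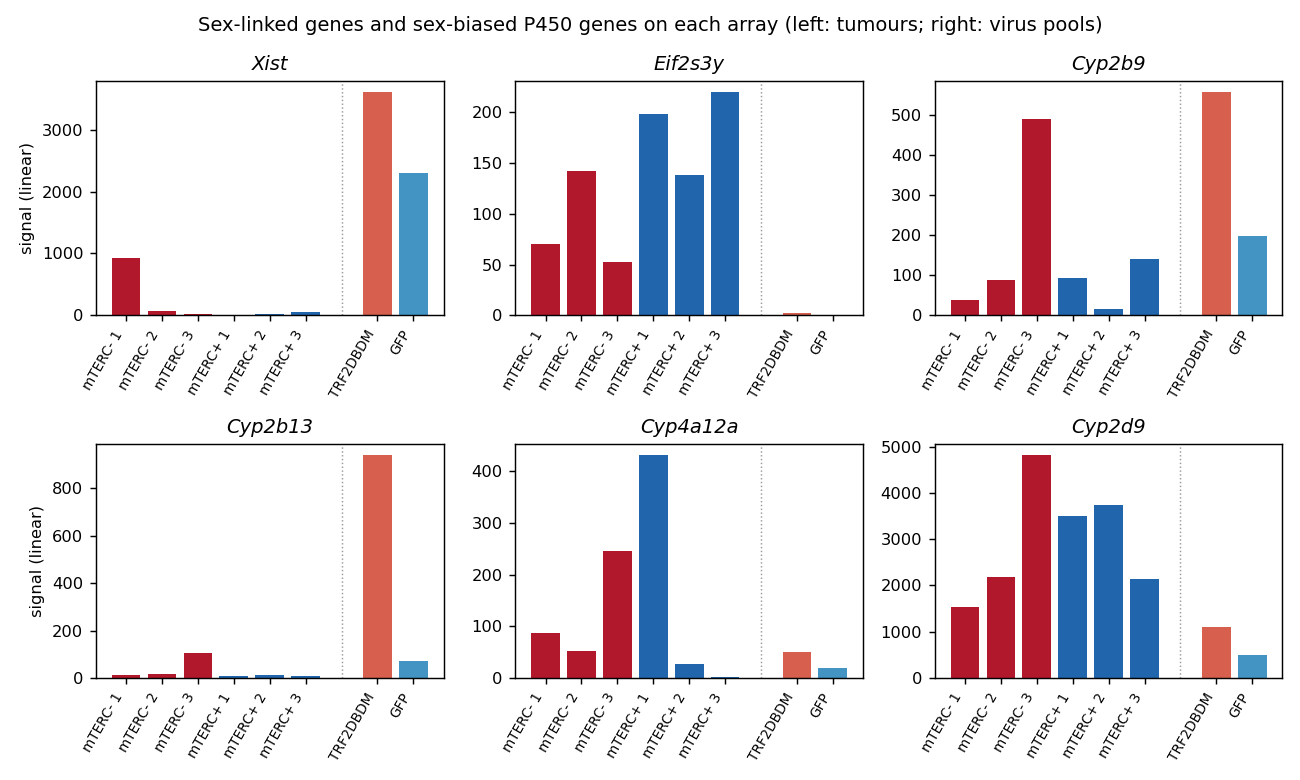
Signal (linear axis from 0) of Xist, the Y-linked gene Eif2s3y, the female-biased Cyp2b9 and Cyp2b13 and the male-biased Cyp4a12a and Cyp2d9, on the 3 mTERC- (dark red), 3 mTERC+ (dark blue), TRF2DBDM (light red) and GFP (light blue) arrays, with a dotted line between the separately scaled tumour and virus tables. Xist is high in both virus pools and in mTERC- tumour 1, and Cyp2b13 has its highest bar in the TRF2DBDM pool.

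The genes that serve or regulate P450 enzymes were read from lists, none of whose members passed in limma in the tumours. Of 12 genes of electron supply and haem synthesis, 6 had a higher and 6 a lower mean in mTERC- tumours, with a median log2 difference of -0.08. After virus infection 10 of 12 were higher in the TRF2DBDM pool but 0 reached 2-fold, with a median log2 ratio of 0.18. Alas1, the first enzyme of haem synthesis, had 922.3 in the TRF2DBDM pool against 879.1 in the GFP pool. Cyb5a, a cytochrome that passes electrons to P450 enzymes, had 1843.5 in the TRF2DBDM pool against 932.7 in the GFP pool, a log2 ratio of 0.96. Hmox1, which degrades haem, had 113.1, 131.6 and 161.6 in mTERC- tumours, against 623.1, 848 and 92.1 in mTERC+ tumours, with overlap through mTERC+ tumour 3.

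Of 12 regulators 3 had a higher and 9 a lower mean in mTERC- tumours, with a median log2 difference of -0.12. Of 11 compared in the virus pools 6 were higher in the TRF2DBDM pool, with a median of 0.04. The single one at 2-fold or more was Ghr, the growth hormone receptor, with 698.5 in the TRF2DBDM pool against 156.7 in the GFP pool, a log2 ratio of 1.95. Nr1i3, the gene of CAR, had 262.2 in the TRF2DBDM pool against 143 in the GFP pool, a log2 ratio of 0.75, and Ppara had 121.4 against 53.4, a log2 ratio of 0.84. Hnf4a had 1591.7 in the TRF2DBDM pool against 2052.4 in the GFP pool, a log2 ratio of -0.36, and Ahr and Nr1i2, the gene of PXR, had ratios near 0, at -0.03 and -0.04.

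Epoxide hydrolases open the epoxides that several Cyp2 enzymes make. Ephx2 (Entrez Gene 13850) had 2259.3, 2394.9 and 1759 in mTERC- tumours, against 5626.6, 2632.2 and 3692.5 in mTERC+ tumours. The groups did not overlap, with a log2 difference of -0.83 (SE 0.35) and an adjusted p of 0.953 in limma. Among the virus pools Ephx1 had 1673 in the TRF2DBDM pool against 584.6 in the GFP pool and Ephx2 had 1909.2 against 761.1, both at least 2-fold higher.

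P450 genes of other families act in steroid, bile acid and retinoid metabolism. In the tumours 7 of 12 had a higher and 5 a lower mean in mTERC- tumours, with a median log2 difference of 0.27. Cyp39a1, an oxysterol hydroxylase, had 630.8, 499.9 and 811.8 in mTERC- tumours, against 443.6, 240 and 117.4 in mTERC+ tumours, and its groups were apart, at a log2 difference of 1.31 (adjusted p = 0.906 in limma). In the virus livers 5 of 12 were at least 2-fold higher in the TRF2DBDM pool, where 4.62% of all genes were. At least 2-fold lower was 1, where 2.9% of all genes were, and the median log2 ratio was 0.69. Cyp7a1, Cyp8b1 and Cyp46a1 entered through the TRF2DBDM array alone, which favours a higher value there, and Cyp7a1 and Cyp8b1 are among the 5. Cyp8b1, the sterol 12-hydroxylase, had 336.9 in the TRF2DBDM pool against 10.2 in the GFP pool. The GFP value lay far below the array median, so that the size of its ratio, 3.13 on the log2 scale, is largely set by the added 32. Cyp26a1, which degrades retinoic acid, went the other way, with 65.9 in the TRF2DBDM pool against 1282.1 in the GFP pool, a log2 ratio of -3.75.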

How the data were processed

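Liver tumours and virus-infected livers were measured on 2 kinds of Affymetrix array, with 1 array per tumour or pool. The deposited values are intensities, the MAS5 signal of each probe set, per the submitters' processing notes, with the MAS5 version and target not given in the sources used here. Each array's mean signal, trimmed by 2% at both ends, was 149.9 to 150, so the authors' scaling was kept.

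The members, lists and rules were chosen with earlier results of these data known. Probe sets with 1 gene symbol in the platform annotation, which can be old, were used, and all 56 member genes matched the RefSeq table by Entrez ID under the same symbol. Levels were log2(signal + 32), and each gene was its probe set of highest mean level, chosen separately on each array type. Tumour genes whose mean level reached that of the median probe set were tested with limma 3.58.1 in R 4.3.3 (variance trend, two-sided, Benjamini-Hochberg over 11980 genes). The virus pair, 1 array per group, was compared by ratio without a test. The p-values measure the spread between 3 tumours of different mice per group. The number of arrays limits the precision.

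Values and log2 differences or ratios were given for members whose groups did not overlap at a log2 difference of at least 1, the 10 of smallest p, the 5 of highest signal, those whose probe sets disagreed, and the 12 highest and 6 lowest virus ratios. Other members were named from fixed lists or to account for each subfamily. The code was tested on simulated data. Alternatives were quantile normalization, median centring, pseudocounts of 1 and 64, no filter or one at percentile 75, the mean of probe sets or every probe set, array weights, leaving out the variance trend, the Y-linked genes as a covariate, and leaving out each tumour.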

Additional observations from a re-analysis of the deposited data

Results flagged for a closer look

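There were 4 probe sets whose annotation gives more than 1 P450 symbol, so they were not members, and 3 of them had a ratio of at least 2 in data that the comparisons above do not use. The probe set for Cyp2a5 and Cyp2a4, a coumarin hydroxylase and a female-biased steroid hydroxylase, had 4302.6 in the TRF2DBDM pool against 580.2 in the GFP pool, a log2 ratio of 2.824. In tumours it had 12156.3, 4810.8 and 18189.5 in the mTERC- group, against 3850.8, 8999.6 and 11757.6 in the mTERC+ group, which overlapped.

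The probe set for Cyp4a31 and Cyp4a10, genes of fatty acid hydroxylases, had 818.7 in the TRF2DBDM pool against 193.3 in the GFP pool, a log2 ratio of 1.917. In tumours it had 107.2, 74.2 and 103.3 in the mTERC- group, against 746.3, 162.7 and 28.9 in the mTERC+ group. The probe set for the female-biased Cyp3a41b and Cyp3a41a had 388.1 in the TRF2DBDM pool against 156.3 in the GFP pool, a log2 ratio of 1.158. Each describes 1 pair of arrays with no replicate. No group had 4 to 10 samples, so single arrays were not tested for standing apart.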

How the results depend on the processing

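Under every alternative named above 0 P450 members passed in the tumours, with the smallest adjusted p of any member between 0.308 and 0.97 in limma, while over all genes the count was 1 and became 0 with median centring, a pseudocount of 1, the filter at percentile 75, the mean of probe sets, the Y-linked covariate and no trend in the variance, and 0 to 6 with a tumour left out. The 5 members whose groups did not overlap became 1 with the filter at percentile 75 and 6 to 9 with a tumour left out, where fewer arrays have to separate. The members' median of -0.059 was 0.0804 with the Y-linked covariate and -0.124 to 0.081 with a tumour left out. Signs turned for 3 genes with small differences: Cyp3a11 lay between -0.556 and 0.00729 with a tumour left out (the upper value without mTERC- 1), Cyp2d10 between -0.463 and 0.214 (the upper value without mTERC+ 3), and Cyp2c70 was -0.051 with median centring, -0.156 with array weights and -0.273 to 0.364 with a tumour left out (-0.0663, -0.273, -0.0209 and -0.0221 without mTERC- 1, mTERC- 2, mTERC+ 1 and mTERC+ 2). In the virus livers the members' median of 1.34 was 1.22 with median centring, which moved the median of all genes to -0.0917, 1.54 with a pseudocount of 1, 1.09 with 64, 0.937 with no filter, 1.54 with the filter at percentile 75 and 1.23 over every probe set. Members at least 2-fold higher numbered 20 to 25, and 1 was at least 2-fold lower with median centring and with a pseudocount of 1. Over all genes 684 were at least 2-fold higher with a pseudocount of 1 and 224 with 64. Cyp2d22 had 0.444 with the mean of its probe sets. The causes were not tested. No paired analysis was possible because the labels give the tumours no shared replicate numbers and the virus pools 1 array each. Genes with signals near the array median carry little signal over background.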

Other observations

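The probe set annotated to Cyp4f37 and Cyp4f16 had 105 in the TRF2DBDM pool against 268 in the GFP pool, a log2 ratio of -1.131, so it was lower there like both probe sets annotated to Cyp4f16 alone. In tumours it had 306.4, 450.3 and 693.7 in the mTERC- group, against 382.6, 183.8 and 293.7 in the mTERC+ group.

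Of the 12 compared P450 genes outside families 1 to 4, 8 were higher in the TRF2DBDM pool, where 52% of all genes were. Of these 8, Cyp7a1, Cyp8b1 and Cyp46a1 entered through the TRF2DBDM array alone. Cyp7a1, the rate-limiting enzyme of bile acid synthesis, had 189.8 in the TRF2DBDM pool against 34.9 in the GFP pool, where it lay below the array median. Cyp27a1, a sterol 27-hydroxylase, had 1254.9 against 574.4, and Cyp17a1, a steroid hydroxylase, had 795.8 against 196.6. Cyp51, of sterol synthesis, had 214.4 in the TRF2DBDM pool against 240.4 in the GFP pool, and Cyp21a1, of steroid synthesis, had 110.4 against 113.6. In tumours Cyp17a1 had 113.9, 145.4 and 63.7 in the mTERC- group, against 893.6, 100 and 297.1 in the mTERC+ group. These overlapped, with a log2 difference of -1.34 (adjusted p = 0.953 in limma).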
